A study of Solanum lycopersicum x Solanum pennellii and Solanum lycopersicum with 21 samples.

Results

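The genes described here encode ACC synthases (ACS), and they were taken as every probe set of the array whose platform symbol starts with ACS followed by a digit. The rule found 8 probe sets of the 10101 tested, 1 for each of 8 genes: ACS1A (Les.1841.1.S1_at), ACS2 (Les.3662.1.S1_at), ACS3 (Les.3642.1.S1_at), ACS4 (Les.3661.1.S1_at), ACS5 (Les.3476.1.S1_at), ACS6 (Les.3769.1.S1_at), ACS7 (Les.3474.1.S1_at) and ACS8 (Les.3475.1.S1_at). The platform annotation gave 1 symbol to 909 of the probe sets, so an ACC synthase gene without a symbol there would not have been found. Transcripts of tomato anthers, collected 1 day before the flower opens, were hybridised to 21 Affymetrix arrays. Of these, 6 were of M82, the cultivated tomato line used as control, and the others were of introgression lines, which carry a piece of chromosome from the wild species Solanum pennellii in a cultivated background. There were 3 arrays of the line IL-1_1_3 and 4 of each of the lines IL-4_2, IL-7_2 and IL-8_1_1. All plants were grown in pots in a greenhouse with the same treatment. Groups follow the sample titles. For 2 of the lines another label gives a shorter name, IL-1_1 for IL-1_1_3 and IL-8_1 for IL-8_1_1. The word pollen stands in the titles of the controls only, and the titles of the lines name no tissue. These titles therefore do not settle whether controls and lines were the same material, which was not tested. The design text calls the lines hybrids, and the labels say neither how many copies of the segment a plant carried nor whether plants were pooled for a sample. Whether any ACS gene lies inside an introgressed segment was not analysed here.

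Ethylene is a gaseous plant hormone, best known in tomato for its part in fruit ripening, in the shedding of flowers and in responses to stress. Plants make it from S-adenosylmethionine, which ACC synthase turns into ACC; ACC oxidase then turns ACC into ethylene. The synthase step is usually the limiting one, and tomato has a family of synthase genes that differ in where and when they are used. ACS2 and ACS4 are the members known from ripening fruit, ACS1A and ACS6 from fruit before ripening, and ACS3 and ACS7 from flooded plants. Ethylene binds to receptors of the ETR family, which act through the kinase CTR1 and the membrane protein EIN2 on transcription factors of the EIN3-like (EIL) family.

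The values were log2 expression levels as deposited, which ran from 3.39 to 14.69 over all probe sets and arrays, with array medians between 9.47 and 9.54. Arrays of 1 group correlated with each other at 0.926 to 0.998 across probe sets. Of the variation of arrays around their group means, 59.2% lay on a single axis, the first principal component computed without the ACS probe sets and called the within-group axis below. The arrays highest on it were replicate 2 of IL-7_2 (score 63.1), replicate 3 of M82 (34.5), replicate 2 of IL-8_1_1 (23.7) and replicate 3 of IL-4_2 (21.4), and the main ACS8 results, and the ACS6 value that rests on one of them, are also given without them. As a check of the labelled tissue, the listed pollen genes Shy, PRK2, PRK1 and LAT61 had mean levels of 14.03, 12.57, 12.43 and 10.78. PRK3 had 7.45, down to 4.71 on its lowest array, and Stig1, a gene known from the stigma, 4.54. The listed green tissue genes PSBO, PsbQ, CAB6A, CAB4 and CAB5 had 12.07, 11.85, 10.97, 10.71 and 6.31. These levels alone therefore do not settle which tissue was sampled. The array also carries 63 reporter probe sets for sequences that are not tomato genes, and 95% of their values lay at or under 5.69, which serves here as a mark for dim signal. The labels do not say that replicates were separate plants, so p-values rest on the scatter among these samples, part or all of which may be technical.

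ACS8 was the member whose level varied most from array to array. In M82 its log2 level was 8.52, 4.41, 9.12, 7.35, 5.18 and 4.57 in replicates 1 to 6, with a median of 6.27. Thus 3 of the control arrays were well above the dim mark and the others below it, and the controls alone spanned a 26.1-fold range. The mean of M82 was 6.53 ± 2.07 (SD, n = 6).

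The lines spread widely too. In IL-1_1_3 ACS8 was at 6.28, 9.53 and 8.79, a mean of 8.20 ± 1.70 (SD, n = 3). In IL-4_2 it was at 5.76, 7.46, 10.28 and 9.72, a mean of 8.31 ± 2.09 (SD, n = 4). In IL-7_2 1 array stood far above the rest, with values of 5.98, 10.33, 4.52 and 4.80 and a mean of 6.41 ± 2.69 (SD, n = 4). IL-8_1_1 held the tightest and highest set, at 9.14, 10.48, 7.85 and 8.28, a mean of 8.94 ± 1.16 (SD, n = 4). The highest and lowest arrays of a group differed 9.46-fold in IL-1_1_3, 23.0-fold in IL-4_2, 56.0-fold in IL-7_2 and 6.16-fold in IL-8_1_1, and every group overlapped every other. Over all 21 arrays the level ran from 4.41 to 10.48, a 66.8-fold range. It was above the dim mark on 16 arrays and at or under it on 5, which were of M82 and IL-7_2. In whole anthers, fewer cells with the transcript and less of it per cell cannot be told apart.

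**Figure D1:**
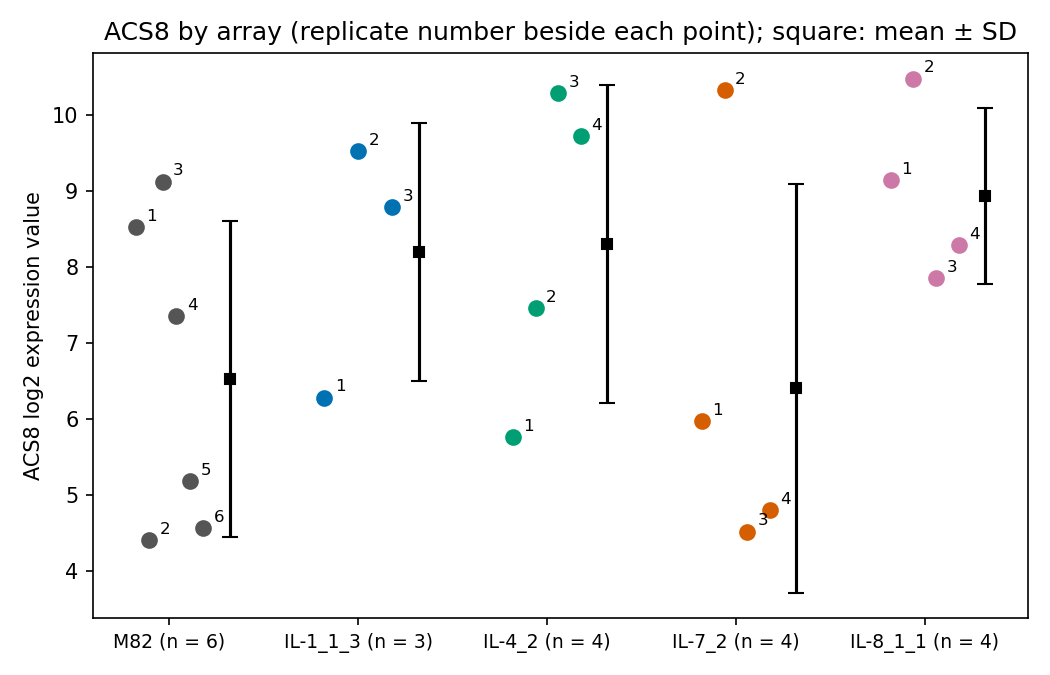
Log2 level of ACS8 on each of the 21 arrays, by group, with the replicate number beside each point and squares with bars for mean ± SD. Values run from 4.41 to 10.48, and each group overlaps each other group.

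Each line was first compared with M82, the comparison the study was designed for, by limma's moderated test in 1 model of all groups. None of the 8 ACS probe sets was called in any line at an adjusted p of 0.05. Over all probe sets, 1.97% were called in IL-1_1_3, 1.83% in IL-4_2, 2.84% in IL-7_2 and 1.44% in IL-8_1_1. At an unadjusted p under 0.05, limma had 0 of 8 in IL-1_1_3, 1 in IL-4_2, 1 in IL-7_2 and 0 in IL-8_1_1, and both were ACS3. Over all probe sets that share was 20.1%, 12.5%, 13.7% and 6.82% in the same order. The median log2 change of the 8 members was 0.08, 0.09, 0.12 and 0.10 in the same order, beside 0.03, 0.03, 0.04 and 0.01 for all probe sets. The 4 comparisons share the M82 arrays.

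For ACS8 the line means were above M82 in 3 lines, by amounts that its spread did not separate from 0. The log2 change was 2.41 ± 1.23 (SE) in IL-8_1_1, with a 95% interval from -0.18 to 5.0 and an adjusted p of 0.776 (limma). It was 1.78 ± 1.23 in IL-4_2, with an interval from -0.81 to 4.37 and an adjusted p of 0.586. In IL-1_1_3 it was 1.67 ± 1.35, with an interval from -1.16 to 4.51 and an adjusted p of 0.472. In IL-7_2 it was -0.12 ± 1.23, with an interval from -2.71 to 2.47 and an adjusted p of 0.983. These intervals are wide enough to hold a rise of more than 5-fold in each line, so the arrays do not show that the lines were alike. Without the 4 arrays highest on the within-group axis the changes were 2.42, 1.64, 2.19 and -0.91 in the same order of lines, with adjusted p from 0.132 to 0.711. A further fit took as covariate each array's projection on that axis, from values centred over all arrays. Unlike the score, this projection also carries group differences. Its means were -12.0 in M82, 5.18 in IL-8_1_1, 6.38 in IL-4_2, 18.2 in IL-1_1_3 and -7.23 in IL-7_2. The fit therefore also takes out group differences along the axis. With it the changes were lower, at 1.25, 0.54, -0.36 and -0.44, with adjusted p from 0.594 to 0.862 (limma). The change in IL-1_1_3 turned its sign.

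The lines were also compared with each other, and 0 of the 8 members was called in any of the 6 comparisons by limma, with 0 at an unadjusted p under 0.05. The share of all probe sets called was 1.67% for IL-4_2 against IL-1_1_3, 3.27% for IL-7_2 against IL-1_1_3 and 1.48% for IL-8_1_1 against IL-1_1_3. It was 4.92% for IL-7_2 against IL-4_2, 2.33% for IL-8_1_1 against IL-4_2 and 4.46% for IL-8_1_1 against IL-7_2. The widest gap of ACS8 lay between IL-8_1_1 and IL-7_2, at 2.53 ± 1.35 (SE) on the log2 scale, with an interval from -0.30 to 5.37 and an adjusted p of 0.374. When limma weighted each array by its own scatter, this difference was 3.80 with an adjusted p of 0.0106. The share of all probe sets called with such weights was not counted. With any 1 array left out the difference ran from 1.90 to 3.84, and 0 ACS probe sets were called. IL-7_2 was below IL-4_2 by a log2 difference of -1.90 (interval -4.74 to 0.94) and below IL-1_1_3 by -1.79 (interval -4.86 to 1.27).

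By mean level the groups stood in the order IL-8_1_1, IL-4_2, IL-1_1_3, M82 and IL-7_2 for ACS8. In exact two-sided permutation tests of neighbours in that order, p was 0.60, 0.914, 0.286 and 0.962, where the smallest p the group sizes allow was 0.0286, 0.0571, 0.0238 and 0.00952. No neighbours in the order differed beyond their spread for ACS8, though neighbours are by construction the closest groups. Of 32 neighbour pairs over the 8 genes, 24 had group sizes that could reach an exact p under 0.05 and 8 had sizes that could not. Of the 24, 0 reached it, and the lowest exact p was 0.162. In the test for any difference over the 5 groups, 0 of 8 members was called by limma, while 7.57% of all probe sets were. The adjusted p of ACS8 there was 0.490, and the lowest of the family was 0.349 for ACS3.

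The ripening members ACS2 and ACS4 were dim in these anthers. ACS2 lay between 4.95 and 6.05 in M82, with a median of 5.03, and the high value was replicate 4 alone. Its line arrays ran from 4.87 to 5.62, within the span of the controls except at the low end. ACS2 was at or under the dim mark on 20 of 21 arrays. ACS4 was under it on all 21, between 4.6 and 5.10 in M82 with a median of 4.92, and up to 5.20 in the lines.

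Among the members known from unripe fruit, ACS1A was the only gene of the family above the dim mark on every array. Its level in M82 had a lowest value of 7.08, a median of 7.53 and a highest value of 8.02. In IL-1_1_3 it was at 8.11, 7.59 and 8.33, and in IL-8_1_1 at 7.66, 8.29, 8.58 and 7.45, so that part of each line lay above all controls and the rest among them. In IL-4_2 it was at 7.36, 7.48, 8.09 and 7.23, and in IL-7_2 at 7.94, 7.65, 7.08 and 7.30, largely within the span of the controls. The log2 change against M82 was 0.44 ± 0.27 (SE) in IL-1_1_3 and 0.42 ± 0.25 in IL-8_1_1, with adjusted p of 0.363 and 0.846 (limma). In IL-4_2 and IL-7_2 it was -0.03 and -0.08.

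ACS6 was dim on 20 arrays and bright on 1. In IL-4_2 it was at 4.97, 4.89, 7.48 and 5.50, where the high array was replicate 3, one of the 4 highest on the within-group axis. M82 ran from 4.86 to 5.56 with a median of 5.12, and the other lines from 4.69 to 5.50. The change of IL-4_2 against M82 was 0.57 ± 0.35 (SE, log2), with an adjusted p of 0.535 (limma). Without replicate 3 of IL-4_2 it was -0.02, with an adjusted p of 0.994.

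The flooding members ACS3 and ACS7, and ACS5, stayed at or under the dim mark on all 21 arrays. ACS3 was lowest in M82, at 4.58 to 4.80 with a median of 4.68. In IL-7_2 it was at 4.81, 4.80, 4.91 and 4.80, and in IL-4_2 at 4.76, 4.80, 4.82 and 4.89. In IL-7_2 3 of the 4 arrays, and in IL-4_2 2 of the 4, lay above all controls, and the rest overlapped them. The log2 change was 0.14 ± 0.06 (SE) in IL-7_2 and 0.13 ± 0.06 in IL-4_2, with unadjusted p of 0.0204 and 0.0339 and adjusted p of 0.236 and 0.340 (limma). ACS3 also gave the 1 case over the 10 comparisons in which 2 groups did not overlap, IL-7_2 above IL-1_1_3, where it was at 4.71, 4.76 and 4.73. Of all probe sets, 10.1% did not overlap between these lines. ACS7 ran from 4.09 to 4.36 and ACS5 from 4.28 to 4.81 over all arrays. Across the 7 members other than ACS8, the 28 log2 changes against M82 lay between -0.23 and 0.57, with a lowest adjusted p of 0.236. The 42 changes between lines lay between -0.80 and 0.68, with a lowest adjusted p of 0.339.

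**Figure D2:**
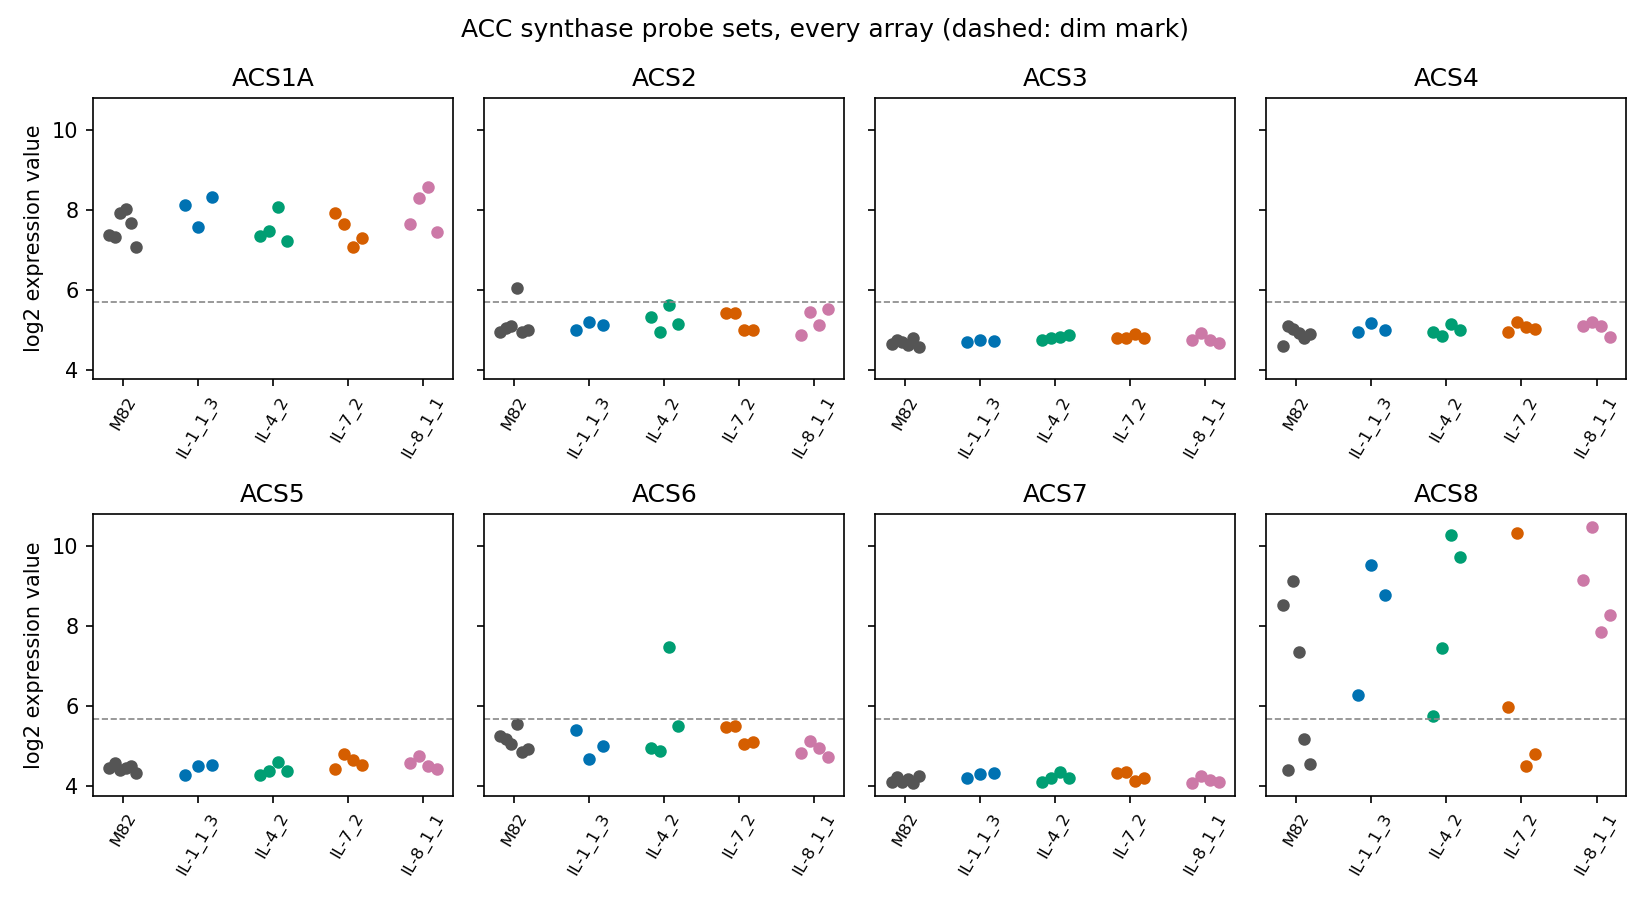
Log2 level of each of the 8 ACS probe sets on every array, by group, 1 point for each array, with the dim mark of 5.69 as a dashed line. ACS8 crosses the mark from 4.41 to 10.48, ACS1A stays above it between 7.08 and 8.58, and the other 6 lie below it, apart from 1 high array for ACS2 and 1 for ACS6.

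ACS8 had the widest spread of the 8 members among arrays of the same group, which is given here as a description. Its within-group SD, pooled over the 5 groups, was 2.03 on the log2 scale, which ranked 12 among the 10101 probe sets, where the median was 0.19 and the 90th percentile 0.49. ACS6 followed with 0.57, which was 0.27 without replicate 3 of IL-4_2, ACS1A with 0.41 and ACS2 with 0.32. ACS4, ACS5, ACS7 and ACS3 had SDs of 0.14, 0.13, 0.09 and 0.07, below the median of all probe sets. A dim probe set has little room to vary, so the SDs of these 4 describe the signal and may understate the spread of the transcript.

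**Figure D3:**
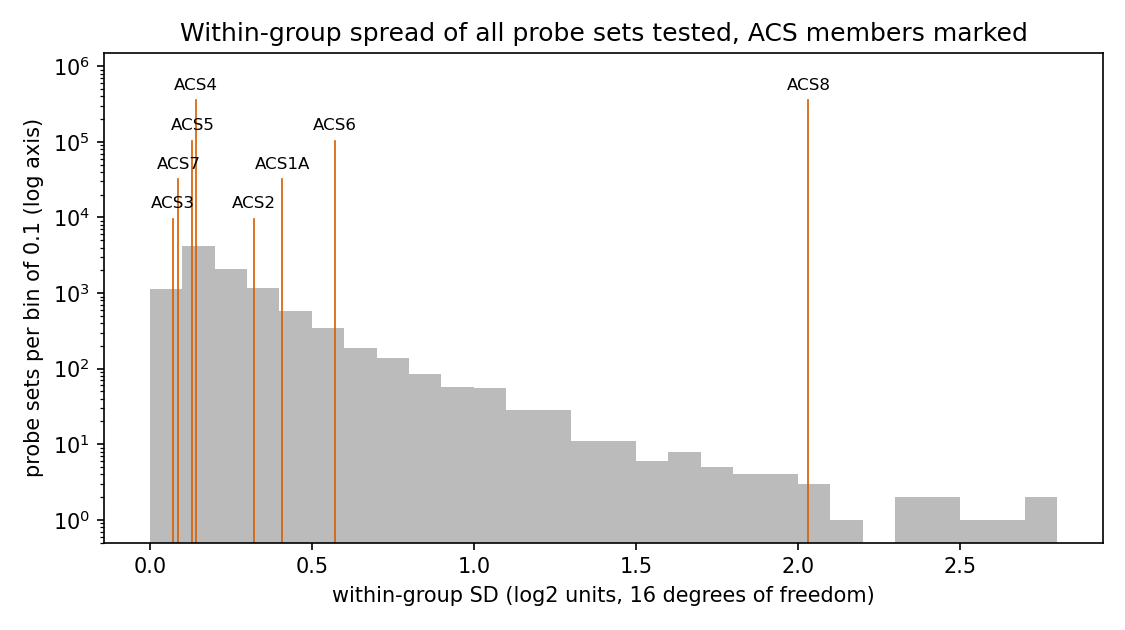
Number of probe sets (log axis) by within-group SD in log2 units, with the 8 ACS probe sets marked by lines whose heights only separate the labels. ACS8 lies at 2.03 in the far tail, and the other members lie between 0.07 and 0.57.

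ACS8 moved with the within-group axis. The correlation of its deviations from the group means with the axis score was r = 0.87 (rho = 0.86) over 21 arrays, where the sign of the axis had been set to make it positive. Its p by permutation within groups was 1e-05 for both, the smallest that 100000 permutations can give, and the adjusted p over 15 such relations was 0.00015. Without replicate 2 of IL-7_2 and replicate 3 of M82, the arrays farthest from the median score, r was 0.77. Without the 4 arrays highest on the axis it was 0.70 (adjusted permutation p = 0.0477). Of the other members, ACS2 (r = 0.55, rho = 0.69) and ACS6 (r = 0.39, rho = 0.48) had adjusted permutation p of 0.0313 for r, and for rho 0.0115 and 0.0745. Without the first-named pair of arrays r was 0.71 for ACS2 and 0.53 for ACS6, and without the 4 highest it was 0.67 (adjusted permutation p = 0.0477) and 0.42 (0.395). Over all 21 arrays, r of ACS1A, ACS7, ACS5, ACS4 and ACS3 with the axis ran from 0.00 to 0.52 with adjusted permutation p of 0.0509 or more.

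Other measures moved with ACS8 to different degrees. A mean was taken of the 6 genes listed as pollen markers, which include Stig1, a gene known from the stigma. This mean ran from 9.78 to 10.59 in M82, from 10.10 to 10.68 in IL-1_1_3 and from 10.14 to 10.76 in IL-4_2. In IL-7_2 it ran from 9.46 to 10.82 and in IL-8_1_1 from 10.17 to 11.60. It followed ACS8 within groups at r = 0.81 (rho = 0.76), with adjusted permutation p of 0.0003 and 0.000825. Without PRK3, which is among the genes most like ACS8 below, and Stig1, r was 0.65 (adjusted permutation p = 0.0313) and rho 0.53 (0.0745). Of the single pollen genes, PRK3 (r = 0.94) and PRK1 (0.69) passed over all probe sets, and LAT61 had r = -0.04. Without the 4 arrays highest on the axis, r of the mean was 0.71 (adjusted permutation p = 0.0477) with all 6 genes and 0.13 (0.719) without PRK3 and Stig1. The mean of 5 genes of green tissue had r = 0.14. One of them, PSBO, had r = 0.68 (adjusted permutation p = 0.0190 over all probe sets). The differences between the 3' and 5' control probe sets of 4 housekeeping genes, a sign of RNA integrity, had r from 0.11 to 0.48 with adjusted permutation p of 0.122 or more. Stig1 was at 8.86 in replicate 2 of IL-8_1_1 and between 4.09 and 5.29 on the other 20 arrays, and without that array the log2 change of ACS8 in IL-8_1_1 was 1.90. The part of these measures in the level of ACS8 was not tested.

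**Figure D4:**
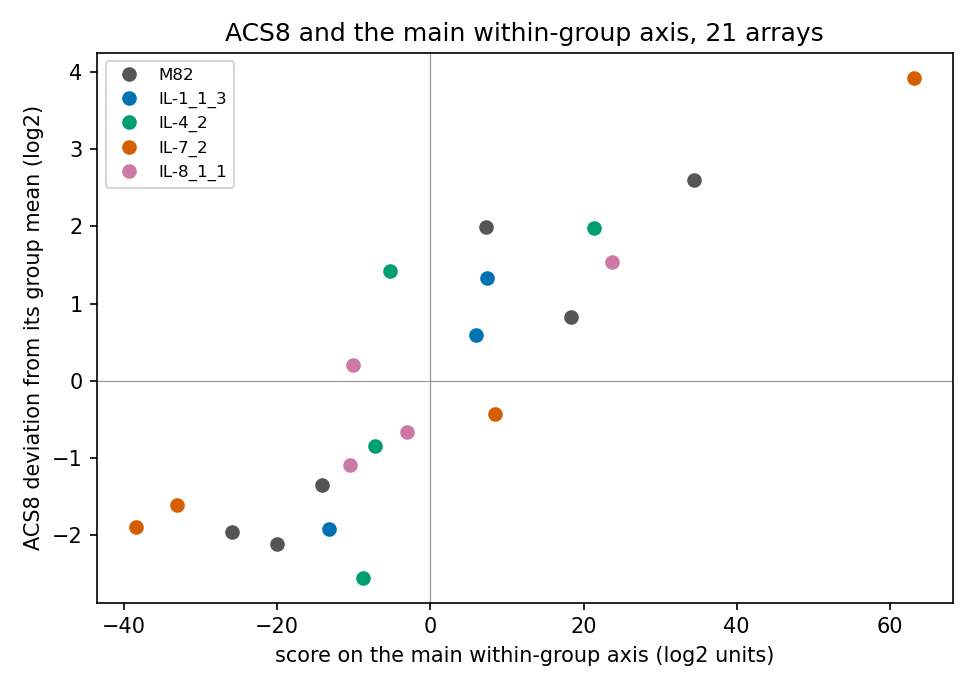
Log2 deviation of ACS8 from its group mean on each of 21 arrays, coloured by group, against the array's score on the within-group axis (log2 units). Arrays with high scores have high ACS8 (r = 0.87 within groups), led by replicate 2 of IL-7_2 at a score of 63.1.

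The named genes whose levels over the 21 arrays were most like those of ACS8 were ranked by Pearson's r among 694 probe sets with an informative symbol. AOX1a, the alternative oxidase of mitochondria, came first at r = 0.96 (rho = 0.92), which was also rank 1 among all 10100 other probe sets. It was followed by HMGR of the mevalonate pathway (0.92), the pollen receptor kinase PRK3 (0.91), the GABA transaminase GABA-TP3 (0.90) and the 14-3-3 protein TFT7 (0.90). The most opposite were OPR1, an oxophytodienoate reductase (-0.87), csn5, a subunit of the COP9 signalosome (-0.86), and the ribosomal protein RPS25 (-0.86).

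The same genes were also described within groups. They were chosen by r over these same arrays, where ACS8 varied more within groups (SD 2.03) than between group means (SD 1.14). High r within groups or in part of the arrays is thus largely set by that choice and is no separate support. With group means removed, r with ACS8 was 0.96 for AOX1a, 0.92 for HMGR, 0.94 for PRK3, 0.94 for GABA-TP3 and 0.91 for TFT7. AOX1a had nearly the same within-group SD as ACS8, at 2.05, and TFT7 a far smaller one at 0.25. In the 6 M82 arrays alone, r was 0.94 for AOX1a, 0.89 for HMGR, 0.89 for PRK3, 0.94 for GABA-TP3 and 0.94 for TFT7. Without the 4 arrays highest on the axis, AOX1a was at 0.94 (adjusted permutation p = 0.0400), TFT7 at 0.87 (0.0361), PRK3 at 0.88 (0.0427), HMGR at 0.82 (0.0456) and GABA-TP3 at 0.88 (0.0522). OPR1, csn5 and RPS25 then stood at -0.65, -0.67 and -0.68, with adjusted permutation p of 0.130, 0.101 and 0.0669.

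Likeness to ACS8 was common on these arrays. At an adjusted permutation p of 0.05, 21.6% of the other 10100 probe sets followed ACS8 within groups (2186) and 26.5% ran against it (2674). Without the 4 arrays highest on the axis, 2.29% passed in either direction (231), where the same r passes less easily because fewer arrays remain. None of the 7 other ACS genes passed, where r ran from 0.13 for ACS3 to 0.54 for ACS5, whose adjusted permutation p was 0.0546.

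The other genes of the ethylene pathway were gathered from the platform symbols into a list of 39 genes (43 probe sets), by role. Against M82, limma called 1 of the 39 in IL-1_1_3 and 0 in each other line, beside the shares of all probe sets given above. Their median log2 change was 0.16 in IL-1_1_3, 0.05 in IL-4_2, 0.14 in IL-7_2 and 0.06 in IL-8_1_1. The gene called was EIL2, one of the EIN3-like transcription factors, which was lower in IL-1_1_3, at a mean of 10.75 against 11.61 in M82. Its log2 change was -0.86 ± 0.19 (SE), with an adjusted p of 0.0292 (limma). The call was lost without replicate 1 or 4 of M82 and without any 1 array of IL-1_1_3, and no gene of the list was called there with the replicate number as a block. Between lines, EIL2 was also lower in IL-1_1_3 than in IL-4_2, IL-7_2 and IL-8_1_1, where the log2 differences of those lines from it were 1.03, 0.83 and 0.95 (adjusted p of 0.00868, 0.0350 and 0.0211, limma). These comparisons share the IL-1_1_3 arrays. The calls with IL-7_2 and IL-8_1_1 were lost without any 1 array of IL-1_1_3 and with the replicate block. That with IL-7_2 was also lost in the fit of 2 groups and under cyclic loess scaling. The call with IL-4_2 was lost without replicate 2 of IL-1_1_3.

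On the side of synthesis, the ACC oxidase ACO5, which acts on the product of ACS, had a mean of 9.49 in IL-1_1_3 and 7.84 in M82, a log2 change of 1.65 ± 0.65 (SE, adjusted p = 0.167, limma). ACO6, a second oxidase, had 13.15 and 12.24, a change of 0.90 ± 0.48 (adjusted p = 0.296), and its 2 other probe sets had changes of 1.41 and 1.44 (adjusted p of 0.320 and 0.306). SAM1 and SAM3, which make the substrate of ACS, had their smallest p in the same line, with changes of 0.14 ± 0.08 and -0.18 ± 0.13 (adjusted p of 0.342 and 0.437).

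In perception and signalling, the receptor ETR6 had the largest difference from M82 of the 39 genes, with a mean of 8.39 in IL-8_1_1 and 6.46 in M82, a log2 change of 1.93 ± 0.48 (SE) whose adjusted p was 0.0534 (limma). The receptor ETR2 had a change of -0.40 ± 0.15 in IL-7_2 (adjusted p = 0.221). EIN2 had 0.28 ± 0.07 in IL-4_2 (adjusted p = 0.0736) and CTR3, a CTR1-like kinase, 0.21 ± 0.06 in IL-7_2 (0.0567). Among the transcription factors, EIL3 had 0.56 ± 0.19 in IL-1_1_3 (0.116), JERF1 0.33 ± 0.10 in IL-7_2 (0.0746) and PTI6 0.47 ± 0.16 in IL-7_2 (0.137). Among response genes, ER5 had -0.59 ± 0.17 in IL-1_1_3 (0.0654), and E8, a gene known from ripening fruit, -0.97 ± 0.31 in IL-8_1_1 (0.246). E8 was the other gene of the list called between lines. It was lower in IL-8_1_1 than in IL-4_2 by a log2 difference of -1.56 (adjusted p = 0.0128, limma). Leaving out replicate 1 or 2 of IL-4_2, or replicate 1 of IL-8_1_1, removed this call. The fit with the replicate block did not call E8 either.

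Within groups, the pathway genes ran with ACS8 more often than against it. At an adjusted permutation p of 0.05, 16 of the 39 genes (41.0%) followed ACS8 and 3 (7.69%) ran against it, beside the 21.6% and 26.5% of all probe sets, and their median r was 0.40 beside -0.01 for all. Of 3 ACC oxidases, ACO6 (r = 0.85, rho = 0.89) and ACO5 (r = 0.79, rho = 0.79) followed it, and the 2 other probe sets of ACO6 had r = 0.88 and 0.87. Of 5 receptor genes, ETR4 (r = 0.93), ETR5 (0.90), ETR6 (0.77) and ETR1 (0.69) followed it and ETR2 (-0.72) ran against it.

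Downstream of the receptors, CTR1 (r = 0.77) and CTR3 (0.66) followed ACS8 of 6 genes, and EIL4 (0.76), EIL2 (0.73) and EIL3 (0.70) of 4. JERF3 (0.89), PTI4 (0.87) and ERF2 (0.67), which are ethylene response factors, followed it of 9, and ER66 (0.81) and ER1 (0.59) of 10 response genes. SAM3 (-0.81) and ER69 (-0.67) ran against it. Spearman's rho of the 19 genes was at least 0.58 in size and had the sign of r.

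Fewer genes passed when the arrays highest on the within-group axis were left out. Without the 4 arrays highest on the within-group axis, 4 of 39 genes (10.3%) passed, beside 2.29% of all probe sets: ACO6 (r = 0.73, adjusted permutation p = 0.0400), ETR4 (0.86, 0.0427), ETR5 (0.76, 0.0427) and ER1 (0.72, 0.0456). With fewer arrays the same r passes less easily, so this count does not measure likeness alone. CTR3 had r = 0.66 over all arrays and 0.74 without the 4, yet no longer passed (adjusted permutation p = 0.0669). ER69 had -0.67 and -0.66 (0.0828). For most of the genes that no longer passed, r was smaller in size, such as EIL2 at 0.37 (0.358). The genes share the arrays and the axis with ACS8, and no test set the list against other genes.

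**Figure D5:**
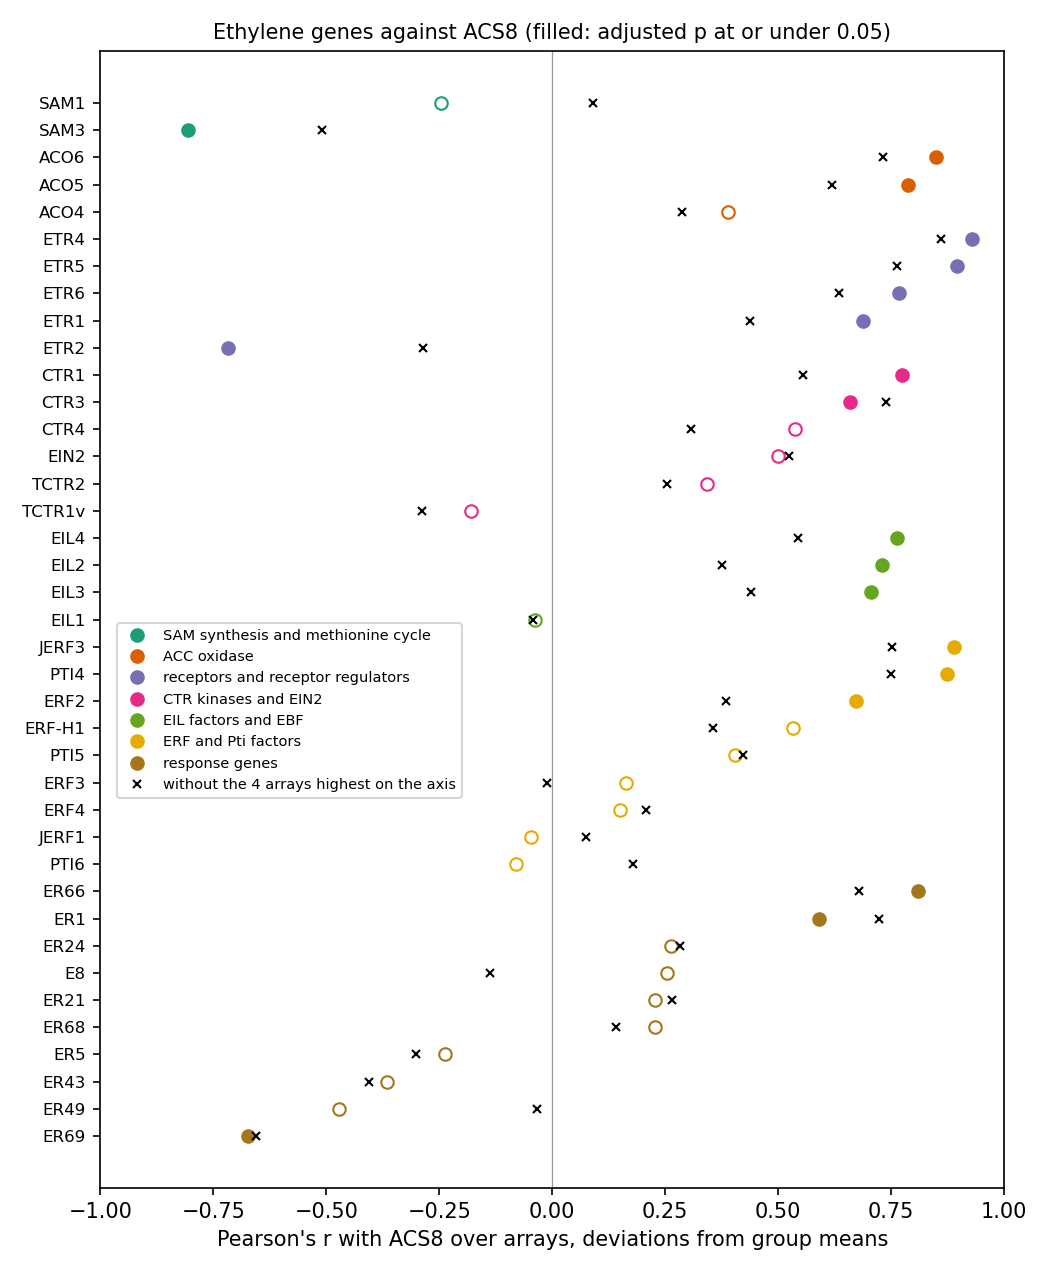
Pearson's r with ACS8 within groups for the 39 ethylene genes, by role, over 21 arrays (circles, filled where the adjusted permutation p was 0.05 or less) and without the 4 arrays highest on the within-group axis (crosses). Filled circles are 16 on the positive and 3 on the negative side.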

How the data were processed

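The authors' deposited table gives each probe set 1 log2 value on each array (10209 probe sets, 21 arrays). The values were made with the affy package, per the submitters' processing notes; for its version and the summarisation, nothing is stated (not given in the sources used here). That the scale is log2 was inferred from how far the values range. The 108 AFFX control probe sets were left out. Gene symbols come from the platform annotation, which can be old (1 symbol for 909 probe sets, none for 9192). Samples were grouped by title.

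One linear model of the 5 groups was fitted to all 10101 probe sets (limma 3.58.1, R 4.3.3, lmFit and eBayes, 16 residual degrees of freedom). P-values were adjusted by Benjamini-Hochberg within each comparison, with calls at 0.05. Correlations used deviations from group means and 100000 two-sided permutations within groups (Python 3.11.15, numpy 2.4.6). Those of single probe sets with ACS8 were adjusted over all probe sets. Those with the axis, the marker means and the 3' and 5' differences were adjusted over these 15 relations. The ranking of genes by likeness to ACS8 used levels without removing group means. Changes and correlations were computed between arrays. Levels of different probe sets were set side by side for the dim mark, the tissue check and the choice of a gene's probe set. A gene with several probe sets was given by the one with the highest mean.

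Named were all ACS probe sets, ethylene genes called against M82 and up to 2 per role with the smallest p, and the 5 genes most like and 3 most opposite ACS8. The members and lists were chosen with earlier results of these data known. Array data carry no read depth, and the number of arrays limits the precision. The model was also run on simulated data, whose outcome is not given here. The simulated noise was independent for each probe set and lacked the shared within-group axis. It therefore cannot say how the model behaves with that axis present.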

Additional observations from a re-analysis of the deposited data

Results flagged for a closer look

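Dixon's test for a single array far from the rest of its group was applied to 64 groups of 4 or 6 arrays, over the 8 ACS probe sets and the 8 genes most like or most opposite ACS8. It marked 4, where chance marks about 1 in 20. ACS2 was at 6.05 in replicate 4 of M82, while the other 5 controls lay between 4.95 and 5.10. ACS3 was at 4.91 in replicate 3 of IL-7_2, against 4.80 to 4.81 in the others, all of them dim. The signalosome gene csn5, whose level ran against ACS8, was at 9.87 in replicate 3 of IL-4_2, against 10.14 to 10.17 in the others. It was at 9.88 in replicate 2 of IL-8_1_1, against 10.20 to 10.24 in the others. Both arrays are among the 4 highest on the within-group axis. The 3 arrays of IL-1_1_3 were too few for the test.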

How the results depend on the processing

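The 10 counts of ACS probe sets called stayed at 0 under cyclic loess scaling, centred medians, 2-group fits, filters on dim or reporter probe sets, other moderation, the replicate block, and with any 1 array left out. With array weights 1 was called in each of 3 comparisons: ACS1A in IL-7_2 against IL-1_1_3 (log2 change -0.81, adjusted p = 0.0251), ACS5 in IL-7_2 against IL-4_2 (0.21, 0.0316) and ACS8 in IL-8_1_1 against IL-7_2 (3.80, 0.0106). Over the 5 groups 2 were then called, ACS1A (adjusted p = 0.0463, limma) and ACS8 (0.0283). The share of all probe sets called with array weights was not counted, and the weights of single arrays are not given here. These calls therefore cannot be told apart from a general rise in calls.

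The ACS8 change of IL-4_2 against IL-1_1_3 turned to -0.40 with array weights and to -0.55 without the 4 arrays highest on the axis. That of IL-1_1_3 against M82 turned to -0.36 with the axis projection as a covariate, which also carries group differences. The change of ACS6 in IL-4_2 against M82 turned to -0.039 without the 4 arrays and ranged from -0.023 to 0.84 with 1 array left out. Correlations with the axis that turned without the 4 arrays were those of ACS5 (-0.080), ACS3 (-0.20) and ACS4 (-0.27). The axis settings were chosen after seeing the data. With 1 array left out, ACS8 changes turned in 4 comparisons: IL-7_2 against M82 (-1.43 to 0.51), IL-4_2 against IL-1_1_3 (-0.85 to 0.96), IL-8_1_1 against IL-1_1_3 (-0.22 to 1.40) and IL-8_1_1 against IL-4_2 (-0.22 to 1.29).

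Ethylene genes called in IL-1_1_3 were 2 in the 2-group fit, 10 with array weights, 0 with the replicate block, 10 without the 4 arrays and 0 to 4 with 1 array left out. IL-4_2 had 5 with array weights and 0 to 1 with 1 array left out. IL-7_2 had 1 without moderation, 3 with array weights, 3 with the axis covariate and 0 to 2 with 1 array left out. IL-8_1_1 had 1 in the 2-group fit, 2 with array weights, 2 with the axis covariate and 0 to 1 with 1 array left out. The share of all probe sets called under these settings was not counted. These counts therefore cannot be read as a result about the ethylene genes. Probe sets following or opposing ACS8 numbered 231 without the 4 arrays and 3523 to 5234 with 1 left out, and ethylene genes 4 and 17 to 22. The causes were not tested.

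Replicate numbers were not treated as pairs of arrays in the main fit. Of 36 same-numbered pairs, 13 had deviations correlated over 0.1 and 20 below 0 (r from -0.81 to 0.70). Pairs with different numbers were not set beside them, so these values cannot settle whether the numbers pair the arrays. With the replicate block the ACS8 changes against M82 were 0.78 in IL-1_1_3, 0.95 in IL-4_2, -0.95 in IL-7_2 and 1.59 in IL-8_1_1, with adjusted p of 0.901 or more. Most ACS probe sets were dim, which limits what a change in them can show.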
